A study of Mus musculus with 16 samples.

Results

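The insulin-like growth factor (IGF) axis was described here in sorted mouse cardiac fibroblasts through 9 genes chosen by symbol: the ligands Igf1 and Igf2, the receptor Igf1r, and the binding proteins Igfbp2, Igfbp3, Igfbp4, Igfbp5, Igfbp6 and Igfbp7. They are 9 of the 19707 genes listed in at least 1 of 3 tables of normalized counts. All 9 were listed in the gain table; the 2 loss tables list 8 of them, and Igfbp2 was not analysed there. The study asked what loss or gain of the transcription factor TCF21 does in these cells, in 16 RNA-seq libraries. Loss was measured in Tcf21-MerCreMer:Tcf21-fl mice after tamoxifen, in which the floxed Tcf21 gene can be deleted in cells that express Tcf21 (called deleted below), against Tcf21-MerCreMer mice given tamoxifen. It was measured in uninjured hearts 2 weeks after tamoxifen (3 deleted and 3 control libraries) and, in a second set, after 1 week of infusion with angiotensin II and phenylephrine, a pair of agents that provoke cardiac fibrosis (2 deleted and 3 control libraries). Gain was measured in Pdgfra-creERT:Col1a1-TCF21 mice against Pdgfra-creERT mice, both given tamoxifen and the same 1-week infusion (2 gain and 3 control libraries). Controls thus carried the Cre driver and had tamoxifen too, all mice were 8 to 12 weeks old, and all carried a Rosa26 reporter that turns on green fluorescent protein after Cre acts, by which the cells were sorted. The driver is Tcf21-MerCreMer in the loss arm and Pdgfra-creERT in the gain arm, so each arm sampled the cells its own driver marks. Nothing in the labels ties a library to an animal of its own, so the p-values speak of the spread among libraries, which may be technical.

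IGF1 and IGF2 are secreted growth factors that signal through the receptor tyrosine kinase IGF1R, which relays to PI3K, AKT and mTOR and to the MAP kinase cascade. The binding proteins IGFBP1 to IGFBP6 hold the ligands outside the cell, lengthen their life and limit or deliver them to the receptor; proteases cut the binding proteins and free the ligand. IGFBP7 has a similar amino-terminal domain but binds IGFs weakly. In the heart, fibroblasts and macrophages are sources of IGF1.

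Binding proteins 3 and 6 are the members that the deletion moved past the test, so their promoters are shown. They were taken from RefSeq (GRCm38.p6), in which all 9 members had an entry, and run 5′ to 3′ on the gene's strand from 250 bases before the annotated start to the first 30 transcribed bases. Capitals mark CANNTG, the E-box that basic helix-loop-helix factors such as TCF21 bind as dimers.
Igfbp3, chr11:7213894-7214173, minus strand: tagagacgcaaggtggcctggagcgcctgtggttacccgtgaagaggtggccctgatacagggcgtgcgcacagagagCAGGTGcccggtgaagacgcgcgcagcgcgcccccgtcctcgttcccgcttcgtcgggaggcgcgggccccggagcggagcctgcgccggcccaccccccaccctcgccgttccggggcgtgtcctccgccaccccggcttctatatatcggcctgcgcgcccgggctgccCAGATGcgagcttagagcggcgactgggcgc
Igfbp6, chr15:102143936-102144215, plus strand: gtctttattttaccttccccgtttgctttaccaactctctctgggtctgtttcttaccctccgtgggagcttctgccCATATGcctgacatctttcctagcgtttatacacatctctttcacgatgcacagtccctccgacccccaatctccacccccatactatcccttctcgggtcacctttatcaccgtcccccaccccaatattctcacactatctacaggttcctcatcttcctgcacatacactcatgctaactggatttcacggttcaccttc
The Igfbp3 window holds CAGGTG beginning 172 bases before the start and CAGATG beginning 1 base before it, and the Igfbp6 window holds CATATG beginning 173 bases before it. CANNTG reads the same on both strands as a pattern and was present in 72.3% of 32851 RefSeq promoter windows of 300 bases, so its presence is common. CAGCTG, a form of the same pattern, was present in 16.3% of windows and, among the members, only in an Igf1 window, beginning 157 bases before the start. The windows of Igf1r and Igfbp7 held no CANNTG. In the GENCODE vM21 annotation of GRCm38, Igfbp3 spans chr11:7206086-7213923 on the minus strand and Igfbp6 chr15:102144362-102149511 on the plus strand, so the RefSeq start of Igfbp6 lies upstream of the GENCODE one. Igfbp4 is on chromosome 11 too, Igf2 and Igf1r are on chromosome 7, Igfbp7 is on chromosome 5, and Igf1 is on chromosome 10, as is Tcf21. These motif hits are matches of letters and not measured binding.

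The normalized counts summed to between 27814940 and 40970391 per library. Tcf21 itself averaged 1405 ± 271 normalized counts in uninjured deleted fibroblasts and 7805 ± 288 in their controls (SD, n = 3 each), 222 ± 51.9 in infused deleted fibroblasts (n = 2) and 2042 ± 684 in theirs (n = 3), and 14161 ± 932 in gain fibroblasts (n = 2) and 5813 ± 585 in theirs (n = 3). It passed the test in each comparison, which in infused loss it did not do without deleted library 1 or without deleted library 2 (limma, adjusted p = 0.0519 and 0.0792), and in gain not without the variance trend described below (adjusted p = 0.0623). All 12 fibroblast markers were listed in every table and summed to at least 3032175 normalized counts in each library, so the labelled cell type showed its markers. The 12 endothelial markers summed to at most 16360 and came mostly from Tek, and the 9 or 10 listed cardiomyocyte markers to at most 1124. In bulk RNA, fewer cells of a type and less RNA per cell cannot be told apart.

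Within a group, gene levels were set side by side as normalized counts per kilobase of the longest annotated transcript. In uninjured controls Igfbp7 stood first, at 67598 ± 2210 per kilobase, followed by Igfbp4 at 18910 ± 1090 and Igfbp6 at 10594 ± 709 (SD, n = 3). Igfbp3 stood at 5454 ± 860, Igf1 at 1126 ± 59.1 and Igfbp5 at 791 ± 195 per kilobase, and libraries of neighbours in this order did not overlap. Igf1r, at 52.2 ± 11.3, and Igf2, at 37.2 ± 6.18 per kilobase, came last and did overlap. In uninjured deleted fibroblasts Igfbp3 was the third member, at 18265 ± 5858 per kilobase, with a range from 13094 to 24628 that overlapped those of Igfbp4 (23032 to 29594) and Igfbp6 (15843 to 17898). Igfbp7, Igfbp4, Igfbp6 and Igf1 were the first 4, in this order, in all 4 infused groups. In these groups Igfbp3 and Igfbp5 followed, with overlapping libraries except that Igfbp3 lay above Igfbp5 in infused deleted fibroblasts. Igfbp2, measured in the gain table, stood at 99.8 ± 19.9 per kilobase in gain fibroblasts and 281 ± 138 in their controls. The order rests on the transcript length assumed, since the median transcript of Igfbp4 and of Igf1 is much shorter than the longest: with median lengths Igfbp4 came before Igfbp7 in uninjured controls, at 94945 per kilobase against 70049.7 for Igfbp7, and Igf1 came before Igfbp6 in all 4 infused groups.

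**Figure D1:**
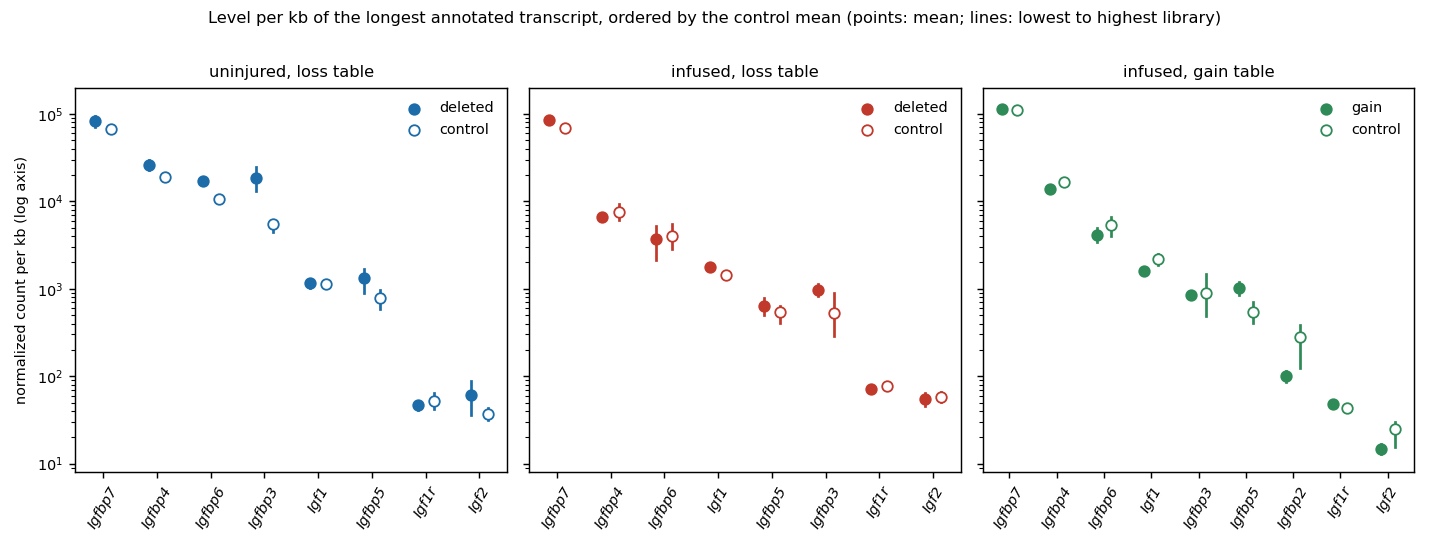
Level of each member in normalized counts per kilobase of its longest transcript, on a log axis, by group. Points are group means, and lines run from the lowest to the highest library. Igfbp7 is the top member in every group, Igf1r and Igf2 are the lowest, and Igfbp3 is the third in uninjured deleted fibroblasts.

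In uninjured hearts, the deletion came with more RNA for 2 of the binding proteins. Igfbp3, the main carrier of IGFs in blood, rose 3.35-fold in normalized counts, and Igfbp6, which prefers IGF2, rose 1.61-fold. Of the 8 members tested these 2 passed, both higher; over all 15544 genes 3.58% passed, 1.63% as higher and 1.96% as lower. Neither ligand nor the receptor passed.

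Igfbp3 had 31700.3, 41334 and 59623 normalized counts in deleted fibroblasts, against 10802, 14491 and 14319 in controls. Every deleted library lay far above every control, and the deleted libraries also differed among themselves by more than the controls did. The means were 44219 ± 14183 and 13204 ± 2082 (SD, n = 3 each), a log2 fold change of 1.71 (SE 0.21, 95% confidence interval 1.23 to 2.19, limma, adjusted p = 0.00585). Igfbp3 ranked 57 and Igfbp6 ranked 51 by p among the 15544 genes tested.
Igfbp6 had 19204, 19903 and 17617 normalized counts in deleted fibroblasts, against 12547, 11821 and 10973 in controls. No deleted library overlapped a control, and the spread within each group was small beside the gap. The means were 18908 ± 1171 and 11780 ± 788 (SD, n = 3 each), a log2 fold change of 0.68 (SE 0.08, interval 0.50 to 0.87, limma, adjusted p = 0.00515).
Both passed in each of the 6 fits that left out 1 library, with log2 fold changes of 1.47 to 1.92 for Igfbp3 and 0.63 to 0.73 for Igfbp6. Neither passed when gene variances were shrunk to a common value and not to a trend with level (limma, adjusted p = 0.0844 for Igfbp3 and 0.0719 for Igfbp6).

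Igfbp4, a carrier that mostly restrains IGF action, had 88235, 96703 and 113375 normalized counts in deleted fibroblasts, against 74599, 75099 and 67631 in controls. All deleted libraries exceeded all controls, and the deleted mean was 1.37-fold that of controls (log2 fold change 0.45, interval 0.20 to 0.70, limma, adjusted p = 0.0582). It was past the threshold without deleted library 1 (limma, adjusted p = 0.0286) and with library weights (adjusted p = 0.0308), so the side of the threshold it falls on depends on 1 library.
Igfbp7 had 84780, 101518 and 112355 normalized counts in deleted fibroblasts, against 84170, 79381 and 79802 in controls. The groups did not overlap, but the lowest deleted library all but met the highest control (log2 fold change 0.29, interval 0.03 to 0.54, limma, adjusted p = 0.189). Without that deleted library, number 1, Igfbp7 passed (limma, adjusted p = 0.0430). Its exons overlap those of Polr2b on the other strand, and the counting is not stated to use strand, so its level is uncertain.
Igfbp5, a carrier that also binds the matrix, had 10103, 5375 and 8581 normalized counts in deleted fibroblasts, against 3479, 5788 and 4980 in controls. The groups overlapped through deleted library 2 (log2 fold change 0.74, interval 0.19 to 1.29, limma, adjusted p = 0.128), and without that library Igfbp5 passed (adjusted p = 0.0481). Deleted library 1 held the lowest Igfbp3, Igfbp4 and Igfbp7 of its group and the highest Igfbp5, Igf1 and Igf1r, while Igfbp6 was lowest in deleted library 3. Groups failed to overlap for 4 of the 8 members, all higher, where 27.7% of all genes did not overlap and 14.1% were higher in that way.

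The ligands and the receptor did not pass. Igf1 had 9046, 7258 and 8408 normalized counts in deleted fibroblasts, against 7492, 8314 and 8025 in controls. The groups overlapped fully, and the interval of the log2 fold change, -0.17 to 0.26, lay wholly below that of Igfbp3 (estimate 0.05, limma, adjusted p = 0.809).
Igf2, the fetal growth factor from an imprinted gene, had 171, 413 and 284 normalized counts in deleted fibroblasts, against 148, 172 and 206 in controls. It overlapped and varied most among deleted libraries (log2 fold change 0.64, interval -0.07 to 1.35, limma, adjusted p = 0.280). Igf2 exons overlap those of Gm49394 on the same strand and Igf2os on the other, so which gene its reads belong to is uncertain.
Igf1r had 595, 535 and 469.9 normalized counts in deleted fibroblasts, against 479.7, 572 and 734 in controls. The groups overlapped, with a log2 fold change of -0.14 (interval -0.55 to 0.26, limma, adjusted p = 0.690). At an unadjusted p below 0.05 stood 5 of the 8 members, the 5 binding proteins, where 21.2% of all genes did, and the median log2 fold change of the 8 was 0.55, beside -0.01 over all genes tested.

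**Figure D2:**
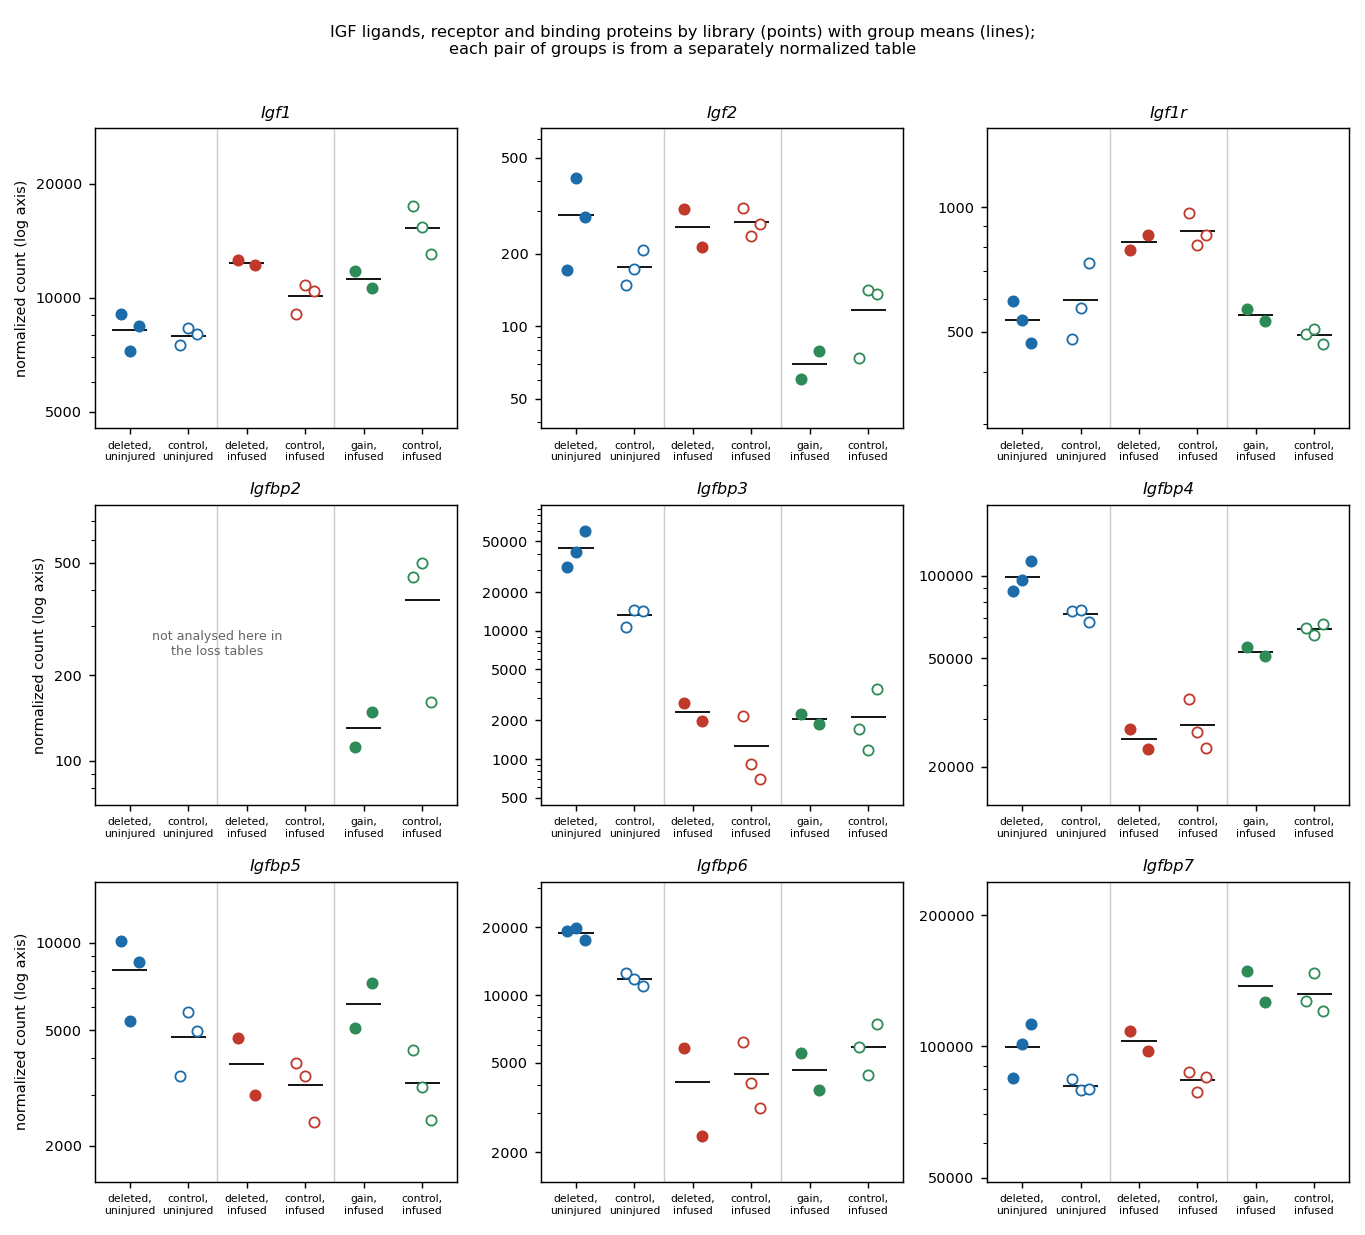
Normalized counts of each member in every library, on a log axis, in the 3 comparisons; points are libraries, with the deleted or gain group left of its controls. The uninjured deleted libraries lie above all their controls for Igfbp3, Igfbp4, Igfbp6 and Igfbp7, while Igf1 overlaps.

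Summed markers of other cells also differed between the groups in these libraries. The 11 mural markers summed to 11979 to 13377 normalized counts in uninjured deleted fibroblasts and 17302 to 19378 in controls, and 4 of the 11 fell. The 12 endothelial markers summed to 12377 to 14007 in deleted fibroblasts and 16166 to 16360 in controls. Tek made up most of this, at a mean of 12616 in deleted fibroblasts and 15353 in controls. The 13 listed myeloid markers summed to 1666 to 2484 in deleted fibroblasts and 1461 to 1620 in controls, and the 8 listed erythroid and platelet markers to 374 to 1199 in deleted fibroblasts and 263 to 299 in controls. The 15 genes induced by cell dissociation summed to 657410 to 706343 in deleted fibroblasts and 658783 to 855784 in controls, which overlapped. Of these 15, 1 fell and 4 had an unadjusted p below 0.05 (limma), where 21.2% of all genes did, and the median log2 fold change was -0.057. The part of these marker and dissociation genes in the binding protein values was not tested.

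The genes most like each called member were named by the smallest root mean square difference of log2 values from the control mean of each table, over the 16 libraries and 11209 genes. Igfbp3 had a root mean square of 0.95 itself, and its nearest were Pcdhb7 at 0.46, Fetub, a secreted fetuin, at 0.47, and Gimap6, a GTPase of the immune-associated family, at 0.47. Pcdhb7 belongs to a cluster of near-identical protocadherins, so its counts are uncertain. Igfbp6 had a root mean square of 0.47, and its nearest were Mturn at 0.20, Adm, which encodes the peptide adrenomedullin, at 0.21 and Rarres2, which encodes the chemoattractant chemerin, at 0.21. These values describe likeness in these libraries only, and they share libraries with the tests above.

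During infusion the same deletion left no member past the test. None of 8 passed (limma), with 1 of 8 at an unadjusted p below 0.05, where 16.1% of all genes did so; over all 14799 genes 0.912% passed, 0.324% as higher and 0.588% as lower. Igfbp3, Igf1 and Igfbp7 had the highest estimates, and the Igfbp6 estimate lay below 0.

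Igfbp3 had 2713 and 1984 normalized counts in infused deleted fibroblasts, against 2164, 923 and 704 in controls. The groups overlapped through control library 1, which held more Igfbp3 than deleted library 2. The log2 fold change was 1.05 (SE 0.44, interval -0.01 to 2.11, limma, adjusted p = 0.312), and without control library 1 it was 1.52 and passed (adjusted p = 0.0306).
Igfbp6 had 5841 and 2373 normalized counts in infused deleted fibroblasts, against 6163, 4065 and 3150 in controls. The deleted libraries lay on both sides of most controls, and the interval was wide (log2 fold change -0.20, interval -1.19 to 0.78, limma, adjusted p = 0.839).
Igf1 had 12570 and 12179 normalized counts in infused deleted fibroblasts, against 9045, 10806 and 10435 in controls. The groups did not overlap, with deleted fibroblasts 1.23-fold higher by means (log2 fold change 0.30, interval 0.03 to 0.56, limma, adjusted p = 0.272). Igfbp7 had 108380 and 97639 normalized counts in deleted fibroblasts, against 87381, 78467 and 84925 in controls, again without overlap (log2 fold change 0.30, interval -0.11 to 0.71, limma, adjusted p = 0.433). Those 2 were the members without overlap, where 35% of all genes did not overlap, 17.3% as higher and 17.7% as lower.
The remaining members overlapped their controls. Their log2 fold changes were -0.08 for Igf2, -0.09 for Igf1r, -0.15 for Igfbp4 and 0.23 for Igfbp5, and none passed (limma, adjusted p 0.685 to 0.880). Library 1 of the deleted group and library 1 of the controls each held their group's highest Igfbp3, Igfbp4, Igfbp5, Igfbp6 and Igfbp7.
Other gene groups also differed in these libraries. The 15 genes induced by cell dissociation summed to 264602 and 218437 normalized counts in deleted libraries 1 and 2, against 469209 in control library 1, the highest control, and 311188 in control library 3, the lowest: the same order of libraries within each group as for Igfbp3, Igfbp4, Igfbp5 and Igfbp6. Of these 15, 11 had an unadjusted p below 0.05 and none passed (limma). The 12 listed myeloid markers summed to 554 to 856 normalized counts in deleted fibroblasts, where Adgre1 was at 0, and 979 to 1129 in controls. The 12 endothelial markers summed to 3040 to 3459 in deleted fibroblasts and 3882 to 6916 in controls. Most of this was Tek, at a mean of 2702 in deleted fibroblasts and 5053 in controls. Of the 10 endothelial markers tested, 6 had a log2 fold change above 0, with a median of 0.184. The 11 mural markers summed to 15509 to 19743 in deleted fibroblasts and 10236 to 14265 in controls. Among them Acta2 averaged 11373 and 5150, while 4 of the 11 had a log2 fold change above 0, with a median of -0.143. The 6 listed erythroid and platelet markers summed to 183 to 504 in deleted fibroblasts and 71.1 to 78.6 in controls, and 1 of the 5 tested rose. The part of these groups in the member values was not tested.

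Whether the loss effect differed with infusion was tested directly, as the difference of both log2 fold changes with all 4 loss groups in the fit. None of 8 members passed (limma); 1 had an unadjusted p below 0.05, where 11.6% of all genes did, and over all 14130 genes 0.149% passed, 0.0495% as higher and 0.0991% as lower. The effect in infused minus that in uninjured hearts was -0.60 on the log2 scale for Igfbp4 (interval -1.13 to -0.08, limma, adjusted p = 0.383). It was -0.89 for Igfbp6 (interval -1.85 to 0.07, limma, adjusted p = 0.468) and -0.66 for Igfbp3 (interval -1.83 to 0.52, limma, adjusted p = 0.661). The Igfbp3 and Igfbp6 intervals include 0 as well as large differences, so passing in uninjured and not in infused hearts does not show that the effects differed. For Igfbp7 it was 0.01 (interval -0.42 to 0.45) and for Igf1 0.25 (interval -0.07 to 0.57).

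**Figure D3:**
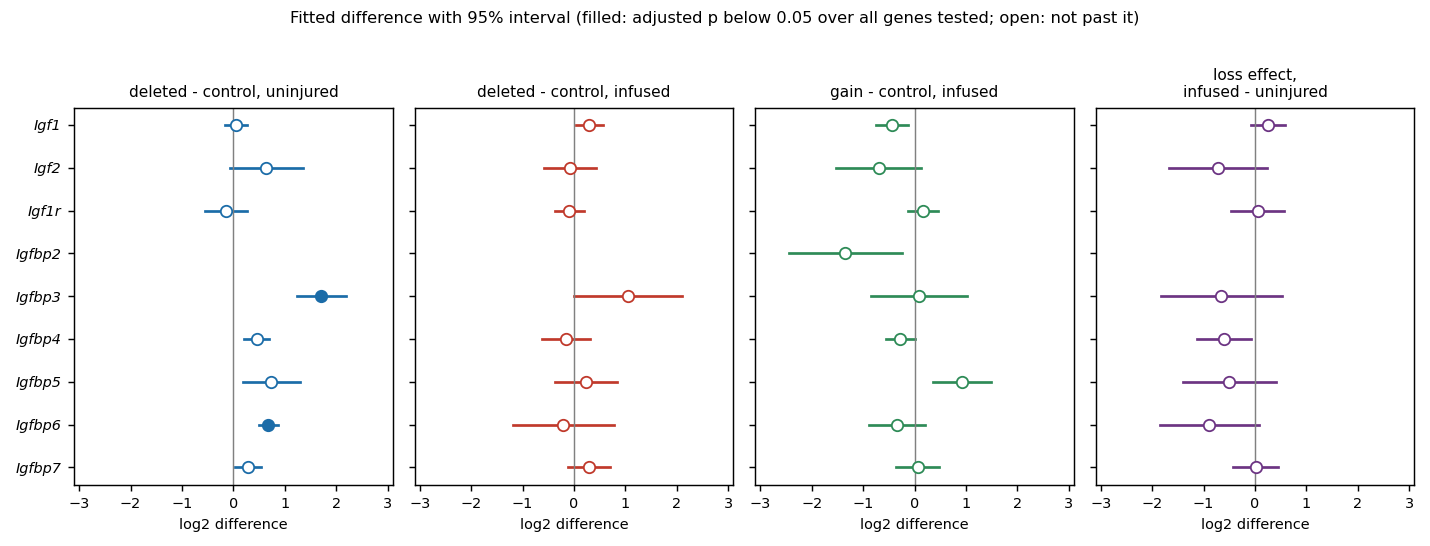
Log2 fold change of each member, deleted or gain over control, with 95% confidence intervals from limma, in the 3 comparisons. The last panel shows the loss effect in infused minus that in uninjured hearts. Filled marks passed at an adjusted p below 0.05. Only Igfbp3 and Igfbp6 in uninjured loss passed, while the uninjured Igf1 and infused Igfbp6 intervals both include 0.

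During infusion, gain of TCF21 left no member past the test either. None of 9 passed (limma), with 3 of 9 at an unadjusted p below 0.05 (Igfbp5, Igf1 and Igfbp2), where 20.4% of all genes did so; over all 15369 genes 4.14% passed, 1.57% as higher and 2.57% as lower. The estimates farthest from 0 were those of Igfbp2, below it, and Igfbp5, above it, and that of Igfbp3 was near 0.

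Igfbp2, a carrier that prefers IGF2, had 112 and 149 normalized counts in gain fibroblasts, against 444, 498 and 162 in controls. The groups did not overlap, but control library 3 lay close to the gain libraries (log2 fold change -1.34, interval -2.44 to -0.25, limma, adjusted p = 0.168). Without control library 3 Igfbp2 was lower by a log2 fold change of -1.86 and passed (adjusted p = 0.00767), and it passed with library weights too (adjusted p = 0.0416).
Igfbp5 had 5086 and 7259.9 normalized counts in gain fibroblasts, against 4272, 3174 and 2452 in controls. Both gain libraries exceeded every control, and the gain mean was 1.87-fold that of controls (log2 fold change 0.92, interval 0.36 to 1.48, limma, adjusted p = 0.0856). Igfbp2 and Igfbp5 lie tail to tail on chromosome 1, 5.46 kb apart (GRCm38, chr1:72824503-72852474 and chr1:72857932-72874884), and their estimates ran in opposite directions.
Igf1 had 11800.1 and 10630.5 normalized counts in gain fibroblasts, against 17485, 15414 and 13020.3 in controls. Both gain libraries lay below every control, and Igf1 was 1.37-fold lower by means (log2 fold change -0.44, interval -0.76 to -0.12, limma, adjusted p = 0.128). It passed without control library 3 (adjusted p = 0.0323) and with library weights (adjusted p = 0.0471).
Igfbp4 had 54732 and 50787 normalized counts in gain fibroblasts, against 64421, 60575 and 66774 in controls, without overlap (log2 fold change -0.28, interval -0.56 to 0.01, limma, adjusted p = 0.258). Igf1r had 567 and 532 normalized counts in gain fibroblasts, against 494, 507 and 468 in controls, also without overlap but with a log2 fold change of 0.17 (interval -0.12 to 0.45, limma, adjusted p = 0.505). No overlap thus held for 5 of 9 members, 3 lower and 2 higher, where 39.3% of all genes did not overlap, 20.1% as lower and 19.1% as higher.
Igfbp3 had 2251 and 1868 normalized counts in gain fibroblasts, against 1701, 1186 and 3526 in controls. The gain libraries lay within the range of the controls (log2 fold change 0.09, interval -0.84 to 1.02, limma, adjusted p = 0.928). Igf2, Igfbp6 and Igfbp7 overlapped, with log2 fold changes of -0.70, -0.34 and 0.06 (limma, adjusted p 0.323 to 0.888). The 12 fibroblast markers summed to 3145339 to 3371554 normalized counts in gain fibroblasts and 4417662 to 4714481 in controls, with 1 of 12, Tcf21, past the test. The 15 dissociation genes summed to 320705 to 379057 in gain fibroblasts and 507985 to 745867 in controls, and 3 of 15 fell, with a median log2 fold change of -0.809 and 0 of 15 above 0. The 12 endothelial markers summed to 5323 to 6729 in gain fibroblasts and 8091 to 11178 in controls. Most of this was Tek, at a mean of 5315 in gain fibroblasts and 9289 in controls. Of the 11 endothelial markers tested, 1 fell (limma), while 7 had a log2 fold change above 0, with a median of 0.229. The 14 myeloid markers summed to 2932 to 5450 in gain fibroblasts and 2515 to 3921 in controls, which overlapped. Of these 14, 12 had a log2 fold change above 0, with a median of 0.579, and none passed (limma). The 10 listed cardiomyocyte markers summed to 1036 to 1124 in gain fibroblasts and 849 to 941 in controls, and 1 of the 9 tested rose. The 11 mural markers summed to 10261 to 12816 in gain fibroblasts and 7716 to 12712 in controls, which overlapped, and 1 of the 10 tested rose. The part of these groups in the member values was not tested.

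**Figure D4:**
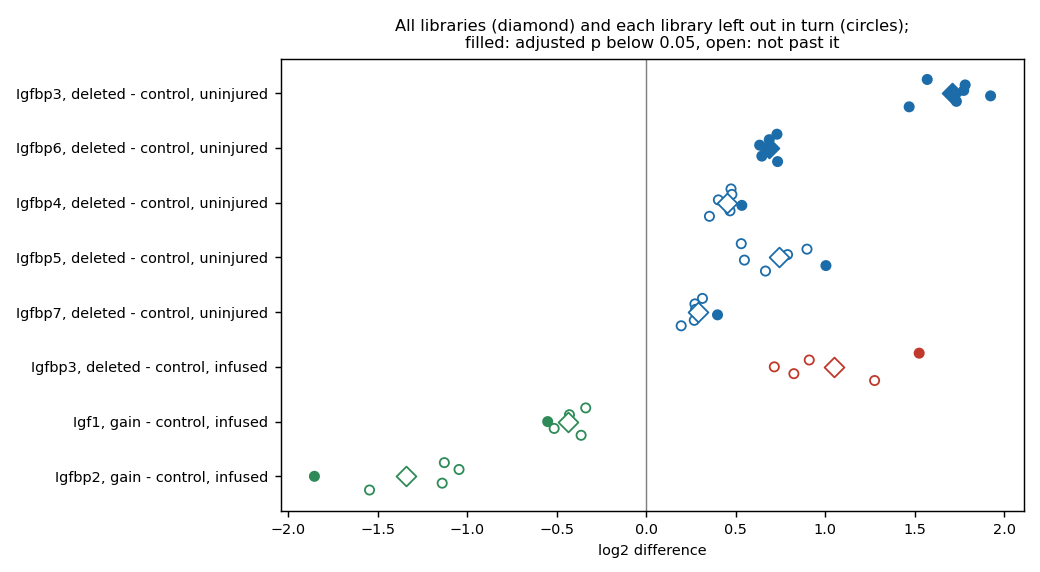
Log2 fold change, deleted or gain over control, when each library was left out in turn, for selected members. Shown are Igfbp3, Igfbp4, Igfbp5, Igfbp6 and Igfbp7 in uninjured loss, Igfbp3 in infused loss, and Igf1 and Igfbp2 in gain. Circles are fits without 1 library, diamonds are fits with all libraries, and filled marks passed at an adjusted p below 0.05. Igfbp3 and Igfbp6 passed in all 6 uninjured fits, whereas Igfbp4, Igfbp5 and Igfbp7 passed in 1 uninjured fit each. Igfbp2 and Igf1 in gain and Igfbp3 in infused loss also passed in 1 fit each.

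The rest of the axis was read from lists of its known parts, by role. Uninjured loss held few calls, and each list's count stands beside 1.63% of all genes called as higher and 1.96% as lower. Of 14 proteases and regulators that act on the binding proteins, 1 rose: Ctsd, the lysosomal protease cathepsin D, had 33450, 34618 and 37815 normalized counts in deleted fibroblasts, against 26875, 25509 and 23796 in controls. Every deleted library was above every control (log2 fold change 0.47, limma, adjusted p = 0.0239), and the call was lost without any 1 of the 3 controls (adjusted p = 0.0579 to 0.121). Of 38 genes of receptor signalling, 1 fell: Deptor, an inhibitor of mTOR, averaged 733 ± 287 normalized counts in deleted fibroblasts and 1949 ± 77.8 in controls (SD, n = 3 each), a log2 fold change of -1.48 (limma, adjusted p = 0.0138; 0.0549 to 0.0803 without any 1 control). Of 8 genes of the growth hormone axis, which drives Igf1 in liver, 1 rose: Cish, an inhibitor of cytokine receptor signalling, averaged 144 ± 44.0 and 44.2 ± 12.3 normalized counts in deleted and control fibroblasts (log2 fold change 1.68, limma, adjusted p = 0.0379), and it passed in 1 of 6 fits that left out a library, that without deleted library 3.
Of 17 proteins with an IGFBP domain, 3 rose, Igfbp3 and Igfbp6 among them. The remaining one was Htra4, a secreted protease, with 2909 ± 527 and 1830 ± 235 normalized counts in deleted and control fibroblasts (log2 fold change 0.66, limma, adjusted p = 0.0463, past in 1 of 6 such fits, that without deleted library 2). Of 16 imprinted growth genes, 1 fell, Peg3, a zinc finger gene, which was 1.63-fold lower by means in deleted fibroblasts (log2 fold change -0.70, limma, adjusted p = 0.0209; 0.0993 and 0.0962 without control 2 or control 3). None of 4 other receptors and carriers, 23 Foxo factors and targets and 2 Igf2 mRNA-binding proteins passed (limma), with 2, 2 and 0 at an unadjusted p below 0.05, where 21.2% of all genes stood. The clearance receptor Igf2r (log2 fold change -0.37, adjusted p = 0.202), the insulin receptor Insr (-0.47, adjusted p = 0.231), the protease Pappa (-0.87, adjusted p = 0.133), its inhibitor Stc2 (-0.55, adjusted p = 0.107), the adaptors Irs1 (0.07, adjusted p = 0.750) and Irs2 (-0.19, adjusted p = 0.393) and the growth hormone receptor Ghr (0.20, adjusted p = 0.310) did not pass in limma. Insr, Pappa and Stc2 were lower in deleted fibroblasts without overlap. H19, the RNA gene beside Igf2, had 19.04, 14.0 and 64.6 normalized counts in deleted fibroblasts, against 2.76, 0 and 5.47 in controls, and did not pass (limma, adjusted p = 0.0952). The median log2 fold changes were -0.422 for other receptors and carriers, 0.123 for proteases and regulators, -0.037 for signalling, 0.079 for Foxo factors and targets, 0.213 for the growth hormone axis, 0.242 for IGFBP-domain proteins, -0.005 for imprinted growth genes and -0.17 for Igf2 mRNA-binding proteins, beside -0.012 over all genes. Here and below, the IGFBP-domain list includes the binding proteins among the members, and the imprinted list includes Igf2. Their medians thus partly repeat the member values.

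In infused loss none of the 8 lists held a call (limma); at an unadjusted p below 0.05 stood 1 of 13 proteases and regulators, 7 of 37 signalling genes, 2 of 22 Foxo factors and targets, 3 of 8 growth hormone axis genes, 1 of 17 IGFBP-domain proteins, 3 of 16 imprinted growth genes, and none of the 4 other receptors and 2 Igf2 mRNA-binding proteins. Over all genes 16.1% did. Ghr, at 6300 ± 546 normalized counts in deleted fibroblasts (n = 2) and 4643 ± 495 in controls (n = 3), was higher without overlap but did not pass (log2 fold change 0.44, limma, adjusted p = 0.168). Igf2r and Irs2 were lower without overlap and did not pass (log2 fold changes -0.20 and -0.29, limma, adjusted p = 0.420 and 0.208). Insr, Irs1, Pappa, Stc2, Htra1 and H19 overlapped their controls (limma, adjusted p 0.432 to 0.840). The medians, in the same order of lists, were -0.146, -0.106, -0.035, -0.105, -0.249, -0.049, 0.024 and -0.428, beside 0 over all genes.

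In gain fibroblasts, over all genes 2.57% were called as lower and 1.57% as higher, so lower calls were the more common in the whole table and not in these lists alone. Of 14 proteases and regulators 1 rose and 2 fell. Htra1, a secreted serine protease that cuts binding proteins, had 1290 and 1310 normalized counts in gain fibroblasts, against 3963, 3044 and 4692 in controls. It was 3.00-fold lower by means, far outside the spread of either group (log2 fold change -1.56, SE 0.17, limma, adjusted p = 0.00713), and passed in all 5 fits that left out a library. Pappa2, which cuts Igfbp3 and Igfbp5, had 84.5 and 96.9 normalized counts in gain fibroblasts, against 223, 185 and 233 in controls (log2 fold change -1.23, limma, adjusted p = 0.0260); without gain 1, gain 2 or control 1 it did not pass (adjusted p = 0.132, 0.107 and 0.0910). Stc1, a stanniocalcin, which inhibits Pappa, had 68.0 and 90.4 normalized counts in gain fibroblasts, against 20.7, 18.95 and 13.1 in controls (log2 fold change 2.12, limma, adjusted p = 0.0315), and passed without control 3 alone among such fits (highest adjusted p = 0.229, without gain 2).
Of 38 signalling genes 2 fell. Grb14, an adaptor that inhibits insulin and IGF receptors, had 163 and 125 normalized counts in gain fibroblasts, against 820.1, 762 and 448 in controls. It was 4.70-fold lower by means, with no overlap (log2 fold change -2.19, SE 0.28, limma, adjusted p = 0.0110), and did not pass without gain 2 (adjusted p = 0.0642). Deptor fell too (log2 fold change -0.48, limma, adjusted p = 0.0445), a call that each of the 5 libraries left out ended (adjusted p = 0.0534 to 0.265).
Of 22 Foxo factors and targets 3 fell. Pik3ip1, an inhibitor of PI3K, averaged 1258 ± 79.1 normalized counts in gain fibroblasts (n = 2) and 2396 ± 172 in controls (n = 3), a log2 fold change of -0.93 (limma, adjusted p = 0.00707; 0.0505 without gain 2). Sesn1, a stress-induced inhibitor of mTOR, fell by 0.59 on the log2 scale (limma, adjusted p = 0.0115; 0.0793 and 0.0760 without gain 1 or gain 2). Gabarapl1, an autophagy gene, fell by 0.48 (limma, adjusted p = 0.0483), and no fit that left out 1 of the 5 libraries called it (adjusted p = 0.0586 to 0.286).
In the growth hormone axis 1 of 8 fell, the cytokine signalling inhibitor Socs1, by 1.14 on the log2 scale (limma, adjusted p = 0.0278; 0.0896, 0.104 and 0.155 without control 1, gain 1 or gain 2). Of 18 IGFBP-domain proteins 2 fell, Htra1 and Ccn3, a matrix protein, which fell by 1.93 on the log2 scale (limma, adjusted p = 0.0143; 0.0529 and 0.0689 without control 1 or gain 2). Of 17 imprinted growth genes 1 fell, Mest, by 1.08 (limma, adjusted p = 0.0357; 0.0571 to 0.0841 without any 1 control or without gain 1). H19 had 156 and 305 normalized counts in gain fibroblasts, against 440, 695 and 638 in controls, and did not pass (log2 fold change -1.41, limma, adjusted p = 0.0554).
None of 4 other receptors and carriers or 2 Igf2 mRNA-binding proteins passed (limma), with 0 and 1 at an unadjusted p below 0.05, where 20.4% of all genes stood. Igf2r (log2 fold change -0.23, adjusted p = 0.410), Insr (-0.03, adjusted p = 0.948), Irs1 (-0.24, adjusted p = 0.201), Irs2 (0.03, adjusted p = 0.970), Pappa (0.01, adjusted p = 0.990), Stc2 (0.39, adjusted p = 0.450) and Ghr (-0.08, adjusted p = 0.817) did not pass in limma. The medians were -0.109 for other receptors and carriers, -0.227 for proteases and regulators, -0.006 for signalling, -0.406 for Foxo factors and targets, -0.197 for the growth hormone axis, -0.37 for IGFBP-domain proteins, -0.097 for imprinted growth genes and 0.49 for Igf2 mRNA-binding proteins, beside 0.007 over all genes. All calls named here among the lists, including those of the members Igfbp3 and Igfbp6, were lost when variances were not shrunk to a trend.

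**Figure D5:**
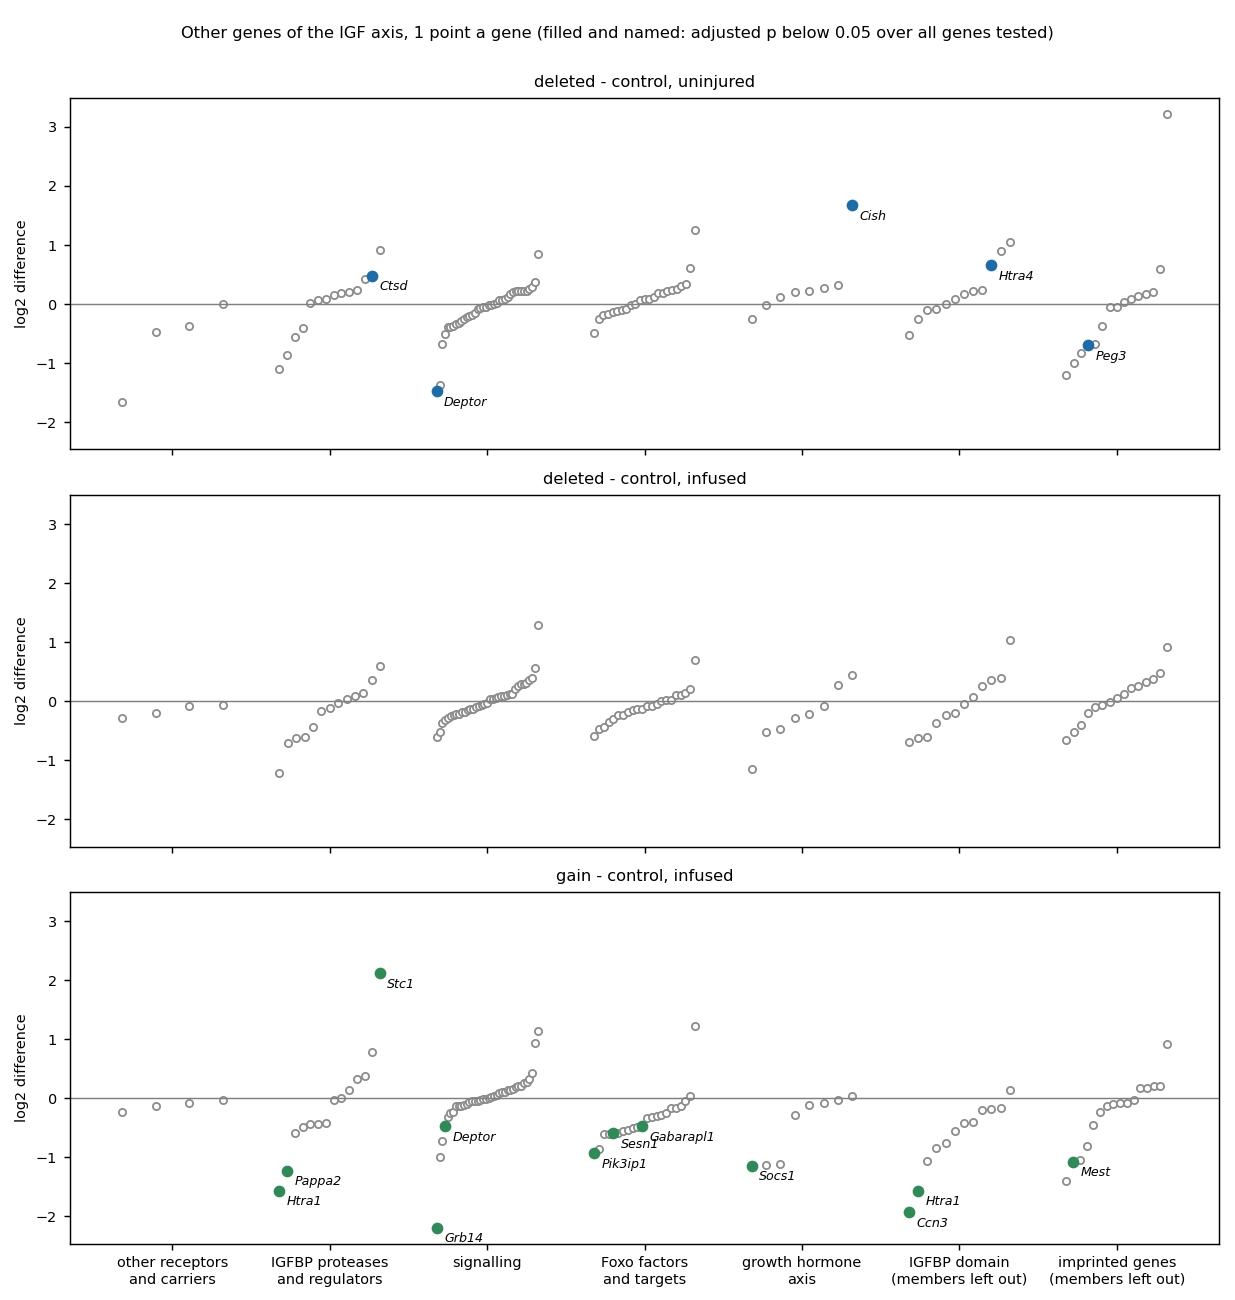
Log2 fold change, deleted or gain over control, of tested genes in the IGF-axis lists, in the 3 comparisons. The members and the list of Igf2 mRNA-binding proteins are left out. Points are genes, and filled points passed at an adjusted p below 0.05. Uninjured loss has isolated calls in several lists, infused loss none, and gain mostly lower ones.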

How the data were processed

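RNA of flow-sorted cardiac fibroblasts was taken with a MiRNeasy micro kit and amplified with SMART-seq V4, per the labels' protocols. The submitters' processing notes name kallisto, DESeq2 and GRCm38; for tool versions and the gene annotation, nothing was found in the sources used here. What the authors deposited is a normalized count signal, 1 table for each of the 3 comparisons, in which estimated counts were divided by normalization factors, as the values and table names show. Low values lay on whole-read steps in 37.3% to 67.4% of cases, so whole reads were not recovered and no count model was run. Depth in reads is unknown.

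limma 3.58.1 (R 4.3.3) was fitted to log2(value + 1) of genes with a mean of at least 10, by lmFit and eBayes with a trended prior variance; tests were two-sided and called at an adjusted p below 0.05 (Benjamini-Hochberg, all genes of a table). Every adjusted p in the text is of this kind. Fold changes on this scale understate low genes. The interaction was fitted over the 4 loss groups. The fit was tested on simulated data. Gene positions and transcript lengths are from GENCODE vM21 and promoters from RefSeq. Members and lists were chosen with earlier results of these data known. Named were all members, every called list gene up to 6 a list, a fixed set of receptors and regulators, and the 3 genes most like each called member. Other pseudocounts, filters, scaling, variance models, weights, a replicate block and leaving out each library were tried.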

Additional observations from a re-analysis of the deposited data

How the results depend on the processing

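No result changed direction while called. Genes called in uninjured loss numbered 557, but 94 without a variance trend, 949 with library weights, 227 with a replicate block and 88 to 891 when 1 library was left out. In infused loss they numbered 135, but 72 without the trend, 308 with weights, 1462 with the block and 32 to 175 with a library left out. In gain they numbered 637, but 25, 1013, 1842 and 124 to 821 under the same settings. The interaction called 21, but 39 with weights, 79 with the block and 12 to 57. Members called were 2 in uninjured loss, but 0 without the trend and 2 to 4 with a library left out. In infused loss they were 0, but 1 with the block and 0 to 1. In gain they were 0, but 2 with weights, 3 with the block and 0 to 2. In the interaction no member passed under any of these settings. Under the block Igfbp3 in infused loss (adjusted p = 0.0279) and Igf1, Igfbp2 and Igfbp3 in gain (0.00325, 0.00172 and 0.0130) passed in limma. With 2 libraries against 3, the block leaves control library 3 without a partner and so drops it from these values. The labels do not say whether replicate numbers pair the libraries. Same-numbered libraries' deviations from their group means correlated at -0.05 to 0.18. Where a group has 2 libraries, their deviations mirror each other, so these values cannot tell whether the libraries are paired. Other pseudocounts, filters and scaling moved no member call. Group sizes of 2 and 3 limit precision.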

Other observations

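Control levels of some members differed widely between tables, while others lay closer together. Igfbp5 averaged 4749 ± 1172 normalized counts in uninjured loss controls, 3246 ± 749 in infused loss controls and 3299 ± 917 in infused gain controls. Igfbp3 averaged 13204 ± 2082 normalized counts in uninjured loss controls, 1264 ± 788 in infused loss controls and 2137 ± 1230 in infused gain controls (SD, n = 3 each). Igfbp6 averaged 11780 ± 788, 4459 ± 1545 and 5907 ± 1510 in the same order of controls, and Igf1 averaged 7944 ± 417, 10095 ± 928 and 15306 ± 2234. These tables were normalized separately and differ in infusion or in the Cre driver, so the differences were not tested and their source cannot be told apart. Of 16135 genes listed in all 3 tables, the uninjured table stood over 8-fold from the mean log2 level of the other 2, which lay within 2-fold of each other, for 108 as lower and for 12 as higher, and Igfbp3 is the member among these 12.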
